A study of Homo sapiens with 21 samples.

Results

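A set of 10 growth factor receptor and ligand genes were followed in 7 parental and 10 treatment-resistant cancer cell lines by RNA sequencing. The 10 genes were the fibroblast growth factor (FGF) receptors FGFR1, FGFR2, FGFR3 and FGFR4, the ligand FGF2, the platelet-derived growth factor (PDGF) receptors PDGFRA and PDGFRB, the ligand PDGFC, the insulin-like growth factor receptor IGF1R and the vascular endothelial growth factor (VEGF) receptor KDR. They were taken by symbol from a fixed list, which was chosen with earlier results of these data known. All 10 were found by Ensembl identifier among the 53515 genes of the count tables. The 21 libraries came from established human cell lines and their in vitro derivatives. HepG2, a liver cancer line grown in William's E medium, was the parent of HepG2S1 and HepG2S3, which resist sorafenib, an inhibitor of Raf kinases and of the VEGF and PDGF receptors. The remaining lines were grown in RPMI medium. PancVB comes from the pancreatic cancer line Panc 03.27, and its derivatives PancB1Q and PancB1V are resistant to 5-fluorouracil. HCC4006P1, HCC4006P2 and HCC827P are lung cancer lines. Their derivatives HCC4006ER, HCC4006GR and HCC827GR resist erlotinib, gefitinib and gefitinib, in that order, both of them inhibitors of the EGF receptor kinase. UWB1.289, an ovarian line, was the parent of the olaparib-resistant U10 and U100. IGROV-1, also ovarian, gave rise to IGROV-1/CDDP under cisplatin. There were 2 libraries of HCC4006ER, HCC4006P1, HepG2S3 and HepG2, and 1 of each of the 13 remaining lines. The paper lists each resistant line as derived from a parental line, and independent derivations of the same resistant line are not described. HepG2S1 with HepG2S3, PancB1Q with PancB1V, and U10 with U100 share the libraries of a common parent.

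The FGF, PDGF, VEGF and IGF1 receptors are tyrosine kinases of the cell membrane. A ligand brings receptor chains together, these phosphorylate each other, and adaptor proteins pass the signal on to the RAS-ERK and PI3K-AKT pathways. FGFR1 and the PDGF receptors are typical of mesenchymal cells, FGFR4 is the main FGF receptor of hepatocytes, where it restrains bile acid synthesis, and KDR is best known in endothelium. The study asked whether DNA methylation changes contribute to resistance through epithelial-to-mesenchymal transition (EMT). Its pairs were selected from reports where EMT-like changes went with resistance and no established mechanism was known. It classed U10, U100 and IGROV-1/CDDP as partial EMT and the other resistant lines as full EMT. Receptors of this kind can carry growth signals that a drug does not block, and whether they did so in these lines was not tested.

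Depth ranged from 9851195 to 36639473 counts on genes per library, with a median of 19498932. Levels are given as CPM, counts scaled to the total on genes of a library, and a floor of 3 counts lies between 0.0819 and 0.305 CPM depending on depth. HCC4006P1 replicate 1 had no counts from GARS1 on chromosome 7 (GRCh37, 30620149 to 30673649) to the end of the alphabetical chromosome order, a stretch that held 18.1% of the counts of replicate 2. FGFR1 was the only one of the 10 genes in it, so its level in HCC4006P1 comes from replicate 2 alone. The tissue labels were checked with marker genes. The summed level of the liver markers ALB, AFP, APOA1 and TTR was 16437 CPM in HepG2, 0 CPM in HepG2S1 and 17.2 CPM in HepG2S3, while the sum of DCN, LUM and RGS5, which mark fibroblasts and pericytes, was 0.631, 537 and 383 CPM. HepG2S1 therefore lacked the defining markers of its labelled tissue. HepG2S3 kept a low level (ALB 9.17 CPM, AFP 7.47 CPM), and its sum lay above the 4.63 CPM of HCC827GR, the highest outside the liver lines. By low coverage genome sequencing, the paper found copy number differences within pairs to be small, except in the HepG2-derived pairs. Whether HepG2S1 and HepG2S3 descend from HepG2 could not be checked from the counts, which bears on each of their differences from HepG2 below. Likewise, the lung markers NKX2-1, NAPSA and SFTPB summed to 0.365 CPM in HCC4006P1 and 0.535 CPM in HCC4006ER, against 266 CPM in HCC4006P2, 21.2 CPM in HCC4006GR, 91.7 CPM in HCC827P and 28.1 CPM in HCC827GR, and the fibroblast and pericyte sum was 0.647 CPM in HCC4006P1 and 128 CPM in HCC4006ER. The pancreas marker PDX1 was at most 0.201 CPM in the pancreatic lines, and GATA6 was at 2.3 to 5.29 CPM there, against 36.6 CPM in HCC827GR. KRT19 had 28.6 to 677 CPM in the pancreatic lines but 1547 CPM in HCC4006P1, so these markers do not set the pancreatic lines apart. The ovary marker WT1 was at most 0.488 CPM in the ovarian lines, which had 357 to 664 CPM of PAX8. MUC16 was at 103, 30.1 and 95.3 CPM in UWB1.289, U10 and U100. It was at 0.473 and 0.554 CPM in IGROV-1 and IGROV-1/CDDP, against 618 CPM in HCC827P. The leukocyte markers PTPRC and CD53 summed to at most 1.9 CPM in any line. Whether these marker levels have a part in the receptor changes was not tested, and in bulk RNA fewer cells of a type cannot be told apart from less RNA per cell.

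Promoter sequence is shown for 4 of the genes that changed in a pair with replicates. Each run is the 250 bases before the annotated 5′ end of the gene on its own strand, from GRCh37, with CG dinucleotides, the sites of DNA methylation, in capitals. FGFR3 and FGFR4 are shown because both fell in the sorafenib-resistant HepG2S3, FGF2 because it rose there, and PDGFRB because it rose in HCC4006ER.
FGFR3 (chr4:1794770-1795019, plus strand): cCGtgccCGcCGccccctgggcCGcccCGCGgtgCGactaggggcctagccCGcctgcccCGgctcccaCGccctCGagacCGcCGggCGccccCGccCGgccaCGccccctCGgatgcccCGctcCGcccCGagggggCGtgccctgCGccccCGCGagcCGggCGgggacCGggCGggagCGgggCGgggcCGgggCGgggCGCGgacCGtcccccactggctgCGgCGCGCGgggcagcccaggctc
FGFR4 (chr5:176513656-176513905, plus strand): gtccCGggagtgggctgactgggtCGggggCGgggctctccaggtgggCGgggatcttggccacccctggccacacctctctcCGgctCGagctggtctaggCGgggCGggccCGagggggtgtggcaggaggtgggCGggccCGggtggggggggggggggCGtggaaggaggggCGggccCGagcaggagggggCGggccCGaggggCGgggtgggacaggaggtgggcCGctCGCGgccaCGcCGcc
FGF2 (chr4:123747587-123747836, plus strand): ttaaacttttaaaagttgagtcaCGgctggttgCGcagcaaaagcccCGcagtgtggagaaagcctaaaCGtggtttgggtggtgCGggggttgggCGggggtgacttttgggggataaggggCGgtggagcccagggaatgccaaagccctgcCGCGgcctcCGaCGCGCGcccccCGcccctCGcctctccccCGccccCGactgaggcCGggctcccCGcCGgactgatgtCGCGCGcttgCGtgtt
PDGFRB (chr5:149535436-149535685, minus strand): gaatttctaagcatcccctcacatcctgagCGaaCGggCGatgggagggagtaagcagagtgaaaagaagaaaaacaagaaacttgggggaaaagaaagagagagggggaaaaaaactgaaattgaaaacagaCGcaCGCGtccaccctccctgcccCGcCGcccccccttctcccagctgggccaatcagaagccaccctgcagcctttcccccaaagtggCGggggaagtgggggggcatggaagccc
The FGFR3 window held 40 CG dinucleotides, more than 97.7% of the windows of 18826 protein-coding genes, whose median was 14. FGFR4 held 22 and FGF2 held 24, above 70.1% and 75% of windows. PDGFRB held 9, above 36.5%, and the window of PDGFRA held 8, above 33.9%. IGF1R with 48 and FGFR2 with 44 were the most CG-rich of the 9 windows, PDGFC held 31 and KDR 17. Motifs were searched as letters on both strands. The GC box GGGCGG, which overlaps the CG count, occurred 8 times in FGFR3, 7 times in FGFR4, 4 times in FGF2 and 1 time in PDGFRB, and 49.5% of all windows held at least 1. The E2-box CACCTG was in FGFR4 alone among the 9 (18.3% of all windows), and the AP-1 letters TGANTCA were in FGF2 and PDGFRA (5.51% of all). No window held TATAAA, present in 9.79% of all. Methylation itself was not analysed here.

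**Figure D1:**
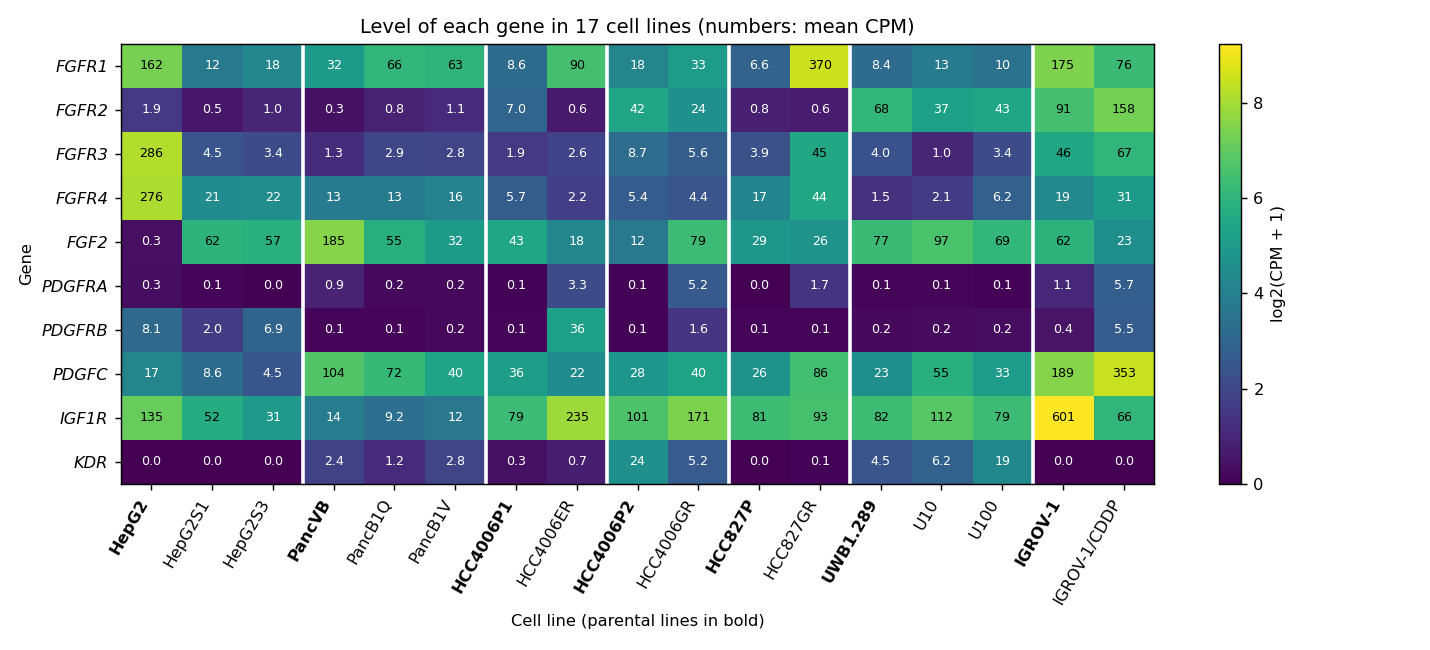
Mean CPM of the 10 genes (rows) in 17 cell lines (columns, parental lines in bold, white lines between families), coloured by log2(CPM + 1). FGFR3 and FGFR4 peak in HepG2 at 286 and 276 CPM, FGFR1 in HCC827GR at 370 CPM and IGF1R in IGROV-1 at 601 CPM.

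FGFR1, FGFR4, PDGFC and IGF1R were present at 1 CPM or more in all 17 lines, FGFR3 and FGF2 in 16, FGFR2 in 10, KDR in 8, PDGFRB in 6 and PDGFRA in 5. By line mean, no line reached 10 CPM of PDGFRA, and HCC4006ER alone did so for PDGFRB.

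Resistant lines were then compared with their parents on log2(CPM + 1), a scale that shrinks the differences of weakly counted genes. Of 82 combinations of gene and pair with at least 1 CPM in either line, the resistant line was at least 2-fold higher in 20 and at least 2-fold lower in 21, so 50% lay past 2-fold, against 21.2% of all gene values over the 10 pairs. Without the HepG2S1 and HepG2S3 pairs 18 were higher and 11 lower. The minimum fixed some of these directions. A gene under 1 CPM in the parent could enter only as higher, as in all 3 rises of PDGFRB and those of PDGFRA outside IGROV-1/CDDP. One under 1 CPM in the resistant line could enter only as lower, as with FGFR2 in HCC4006ER and FGFR3 in U10. The counts of combinations carry no test, since most lines had 1 library, and they were read against the share of all genes past 2-fold in the same pair. As the genes were chosen with earlier results of these data known, a share above that of all genes only describes the list. In HepG2S1, 6 of 8 genes passed, against 44.3% of all genes, and in HepG2S3 6 of 8 against 45.6%. In HCC4006ER it was 7 of 9 against 23.8%, in HCC827GR 5 of 7 against 18.5% and in IGROV-1/CDDP 5 of 9 against 13%. In HCC4006GR it was 4 of 10 against 15.6%. The 5-fluorouracil lines had 2 of 7 in PancB1Q, against 15.5%, and 2 of 8 in PancB1V, against 16.3%. The olaparib lines had 2 of 8 each, against 11.6% in U10 and 8.4% in U100. Directions differed by family: in HCC827GR 5 were higher and 0 lower, in HepG2S1 and HepG2S3 1 was higher and 5 lower. The 5 in HepG2S1 include PDGFRB, whose change rests on HepG2 replicate 1. Over all genes, 1456 were at least 2-fold higher and 1066 lower in HCC827GR, 3590 and 2614 in HepG2S1, and 3860 and 2480 in HepG2S3. Scaling by TMM in place of total counts moved the median change of all genes from 0.24 to -0.10 in HepG2S1, from 0.29 to 0.02 in HepG2S3, from -0.11 to 0.09 in PancB1Q and from 0.12 to 0.01 in HCC4006ER, so CPM-based changes in those lines carry a shift of that size. With TMM sizes 21 combinations were higher and 23 lower.

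**Figure D2:**
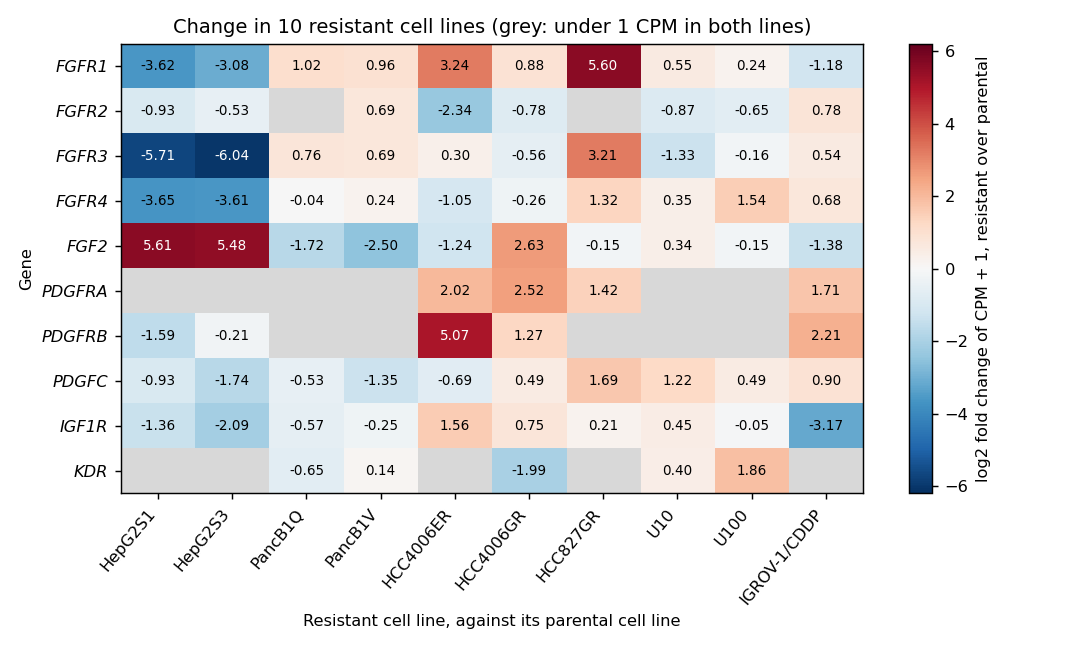
Log2 fold change of CPM + 1 in each of the 10 resistant lines (columns) against its parental line, for each gene (rows), with red for higher and blue for lower in the resistant line and grey where both lines were under 1 CPM. The values run from -6.04 for FGFR3 in HepG2S3 to 5.61 for FGF2 in HepG2S1, and PDGFRA is grey in 6 of the 10 pairs.

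FGFR1 (ENSG00000077782, GRCh37 chromosome 8, 38257733 to 38326352, minus strand), a receptor typical of mesenchymal cells, was at least 2-fold higher in 3 pairs and at least 2-fold lower in 3. Its level was 145 and 180 CPM in the HepG2 libraries, 12.3 CPM in HepG2S1, and 19.3 and 17.4 CPM in the HepG2S3 libraries. The 2 parental libraries lay far above the 3 sorafenib-resistant ones. In HepG2S3 FGFR1 fell by 3.46 on the log2 scale (SE 0.17, 2 libraries a side, edgeR adjusted p = 8.8e-05), in a comparison where 63.5% of 16929 genes were called. In HepG2S1 the ratio of HepG2 to resistant line was 13.2. The lung lines went the other way. FGFR1 was at 8.56 CPM in HCC4006P1 replicate 2 and at 85.4 and 93.9 CPM in HCC4006ER, 10.5-fold higher (95% counting interval 8.96 to 12.3). In a fit without HCC4006P1 replicate 1, where 61.9% of 16597 genes were called, FGFR1 rose by 3.21 (SE 0.16, edgeR adjusted p = 2.4e-91). That p rests on the closeness of the HCC4006ER libraries and assumes that the lone parental library varies as they do. HCC4006P2 had 17.6 CPM and HCC4006GR 33.2 CPM. HCC827P had the lowest level of all 17 lines, 6.63 CPM (115 counts), and HCC827GR the highest, 370 CPM (5758 counts), a 55.8-fold difference (46.4 to 67.7) from 1 library a side. PancVB had 31.9 CPM, PancB1Q 65.7 and PancB1V 63.2, a difference of 1.02 and 0.96 on the log2 scale. UWB1.289 had 8.43 CPM, U10 12.8 and U100 10.1, and the U100 change of 0.24 had a counting interval from -0.10 to 0.58. IGROV-1 had 175 CPM and IGROV-1/CDDP 76.5, a change of -1.18. Across lines, 8 of the 16 neighbours in the order of levels had counting intervals that overlapped.

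FGFR2 (ENSG00000066468, GRCh37 chromosome 10, 123237846 to 123357972, minus strand), whose splice forms serve epithelial and mesenchymal cells and were not told apart here, had its 4 highest levels in ovarian lines, ahead of HCC4006P2. It had 91.1 CPM in IGROV-1, 158 in IGROV-1/CDDP, 67.8 in UWB1.289, 36.7 in U10 and 42.8 in U100. The cisplatin-resistant line was thus above its parent (0.78 on log2(CPM + 1), interval 0.71 to 0.86) and both olaparib-resistant lines below theirs (-0.87 and -0.65). Among lung lines HCC4006P2 had 41.7 CPM and HCC4006GR 24, and HCC4006P1 had 7.04 and 6.97 CPM against 0.557 and 0.616 in HCC4006ER. FGFR2 fell by 3.66 on the log2 scale there (SE 0.26, edgeR adjusted p = 1.0e-04), in a comparison that called 49% of 12791 genes. In HepG2 the libraries had 1.66 and 2.09 CPM and in HepG2S3 1 and 0.979 CPM, so it fell by 1.24 (SE 0.29, edgeR adjusted p = 0.0139). Without either HepG2S3 library the adjusted p was 0.119 or 0.129. HepG2S1 (0.508 CPM), the 3 pancreatic lines (0.322 to 1.13 CPM) and the HCC827 lines (0.75 and 0.643 CPM) had little FGFR2. On log2(CPM + 1), which shrinks such low levels, FGFR2 was past 2-fold in 1 of 8 pairs, and lower in 6 of the 8. By counts alone, HepG2 was 3.69-fold above HepG2S1 (1.54 to 11.6). PancB1Q and PancB1V were 2.61-fold (1.09 to 7.17) and 3.5-fold (1.49 to 9.49) above PancVB, which had 7 counts.

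FGFR3 (ENSG00000068078, GRCh37 chromosome 4, 1795020 to 1810599, plus strand) was at 285 and 287 CPM in HepG2 and at 4.47 CPM in HepG2S1 and 3.81 and 2.94 CPM in HepG2S3. HepG2 had the highest FGFR3 level of all lines and HepG2S1 and HepG2S3 ranked 7 and 11 of 17. In HepG2S3 the gene fell by 6.72 on the log2 scale (SE 0.20, edgeR adjusted p = 3.4e-05), and HepG2 was 64-fold above HepG2S1 by counts. The CG-rich window printed above belongs to this gene. In the lung lines FGFR3 was at 3.92 CPM in HCC827P and 44.6 CPM in HCC827GR, 11.4-fold higher (8.85 to 14.8). It was at 1.75 and 2.1 CPM in HCC4006P1 and 2.63 and 2.57 CPM in HCC4006ER, a difference of 0.34 that did not pass the test (SE 0.26, edgeR adjusted p = 0.329), and at 8.74 and 5.63 CPM in HCC4006P2 and HCC4006GR. IGROV-1 had 45.9 CPM and IGROV-1/CDDP 67.1. UWB1.289 had 46 counts (3.96 CPM), U10 had 10 counts (0.975 CPM) and U100 had 45 counts (3.43 CPM), so U10 and U100 parted although they share a parent. PancVB, PancB1Q and PancB1V had 1.33, 2.94 and 2.78 CPM.

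FGFR4 (ENSG00000160867, GRCh37 chromosome 5, 176513906 to 176525145, plus strand) followed FGFR3 in the liver family. HepG2 had 296 and 256 CPM, HepG2S1 21.1 CPM and HepG2S3 21.2 and 22.3 CPM, and the gene fell by 3.98 in HepG2S3 (SE 0.15, edgeR adjusted p = 5.2e-05). The sublines kept levels near those of HCC827P (17 CPM) and IGROV-1 (19.2 CPM). In HCC4006P1 FGFR4 had 4.86 and 6.51 CPM, against 2.23 and 2.21 CPM in HCC4006ER, so it fell by 1.46 (SE 0.26, edgeR adjusted p = 0.00474), and when the missing stretch was kept as zeros this adjusted p was 0.0501. HCC827GR, at 44.1 CPM, was 2.59-fold above HCC827P (2.26 to 2.98). U100, at 6.18 CPM, was 4.22-fold above UWB1.289 at 1.46 CPM, while U10, at 2.15 CPM, did not differ from UWB1.289 beyond counting error. IGROV-1/CDDP had 31.4 CPM. PancVB, PancB1Q and PancB1V had 13, 12.6 and 15.5 CPM, and HCC4006P2 and HCC4006GR 5.44 and 4.37 CPM, a difference within counting error.

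To weigh the 4 receptors against each other, CPM were divided by the length of the canonical transcript in kilobases, a scale that holds only where reads cover whole transcripts. On this scale FGFR4 led in 5 lines, FGFR2 in 5 and FGFR1 in 7. HepG2 had a sum of 185 CPM per kilobase over the 4 receptors, of which FGFR4 made up 48.3% and FGFR3 36%, and the sums in HepG2S1 and HepG2S3 were 10.1 and 11.3. FGFR1 was the leading receptor in each of the 3 lines resistant to EGFR inhibitors and in none of their parents. Its share was 28.3% in HCC4006P1 and 91.6% in HCC4006ER, 19.5% in HCC4006P2 and 42.5% in HCC4006GR, and 15% in HCC827P and 72.4% in HCC827GR. The lead was narrow in HCC4006GR, where FGFR2 held 37.7%, and in HCC4006P1, where FGFR4 held 34.6% and FGFR2 28.6%. FGFR2 led in UWB1.289, U10 and U100, with 83.6%, 71.5% and 66.9%. In the cisplatin pair the lead passed from FGFR1 (45.6% in IGROV-1) to FGFR2 (46.5% in IGROV-1/CDDP). These shares are descriptions without a test.

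**Figure D3:**
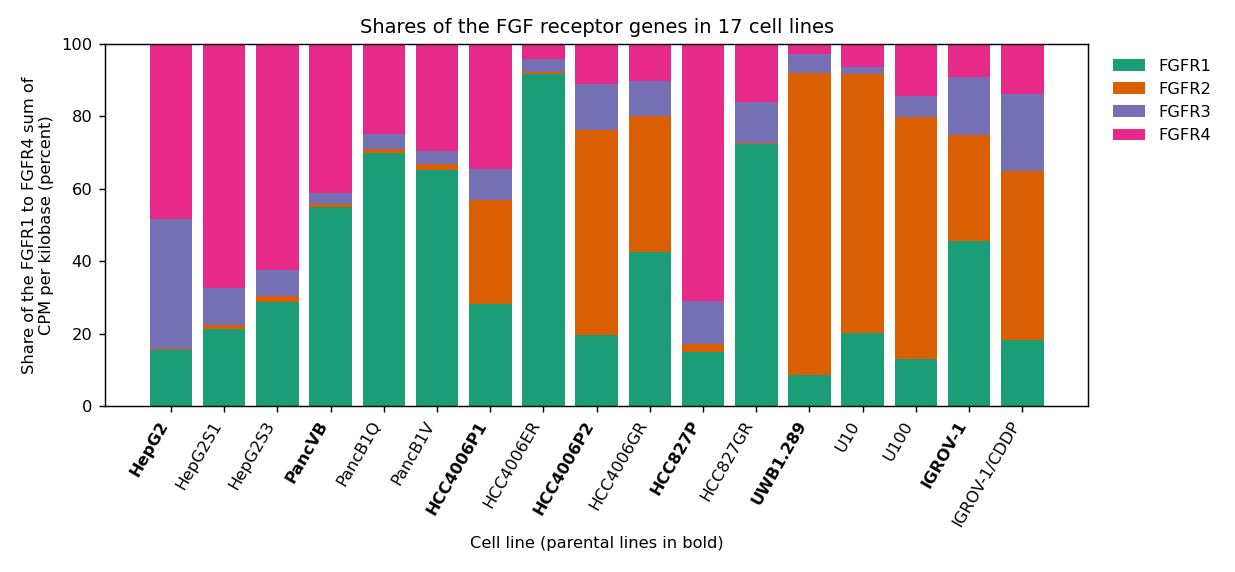
Share of each FGF receptor gene (stacked colours, percent) in the summed CPM per kilobase of FGFR1 to FGFR4, for 17 cell lines with parental lines in bold. FGFR1 fills 91.6% of the bar in HCC4006ER and 72.4% in HCC827GR, against 28.3% and 15% in their parents.

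FGF2 (ENSG00000138685, GRCh37 chromosome 4, 123747837 to 123819391, plus strand), a ligand that binds several FGF receptors, moved opposite to FGFR1, FGFR3 and FGFR4 in the liver family. HepG2 had 13 and 8 counts (0.355 and 0.23 CPM), HepG2S1 613 counts (62.2 CPM) and HepG2S3 1677 and 1869 counts (52.4 and 61 CPM). HepG2 was the lowest of the 17 lines and the only one under 10 CPM. FGF2 rose in HepG2S3 by 7.26 on the log2 scale (SE 0.27, edgeR adjusted p = 4.7e-05), and the ratio by counts was 193 (126 to 312). In HepG2S1 it was 212 (137 to 345). The rise went with the lower liver markers and the higher fibroblast and pericyte sum given above, whose part in it was not tested. PancVB had the highest level, 185 CPM, and PancB1Q (55.2 CPM) and PancB1V (31.8 CPM) were 3.35-fold and 5.81-fold lower. FGF2 was at 36.7 and 49.5 CPM in HCC4006P1 and at 17.1 and 18.2 CPM in HCC4006ER, so it fell by 1.39 (SE 0.20, edgeR adjusted p = 0.00175). The other HCC4006 pair went the opposite way, with 11.9 CPM in HCC4006P2 and 78.8 CPM in HCC4006GR, 6.62-fold higher (5.61 to 7.85). HCC827P and HCC827GR, at 28.8 and 25.9 CPM, were within counting error of each other. UWB1.289, U10 and U100 had 76.7, 97.4 and 69 CPM. IGROV-1 had 62.2 CPM and IGROV-1/CDDP 23.2. FGF2 overlaps NUDT6 (chromosome 4, 123809852 to 123844123) on the minus strand, which had between 1.77 and 8.62 CPM, and whether the counting used strand is not given in the sources used here.

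PDGFRA (ENSG00000134853, GRCh37 chromosome 4, 55095447 to 55164412, plus strand), a receptor of fibroblasts and their precursors, was scarce in parental lines. Its highest parental level was 1.06 CPM (29 counts) in IGROV-1, and it had 19 counts (0.875 CPM) in PancVB and 1 and 18 counts in the HepG2 libraries. A line reached 1 CPM in 4 pairs, in 3 of them the resistant line alone, so that a higher level there was fixed by the minimum. Under it, PancB1Q (5 counts) and PancB1V (4 counts) were below PancVB beyond counting error, with ratios of 0.2 (0.0584 to 0.554) and 0.184 (0.0456 to 0.554). HCC4006P1 had 1 and 2 counts and HCC4006ER 69 and 62 counts (3.49 and 3.18 CPM), a rise of 5.35 (SE 0.45, edgeR adjusted p = 2.0e-04) and a ratio of 47.1 (15.8 to 232). HCC4006P2 had 1 count and HCC4006GR 78 (5.16 CPM), a ratio of 70.3 (12.2 to 2810). HCC827P had 0 counts, which allows up to 0.173 CPM, and HCC827GR 26 (1.67 CPM), at least 9.66-fold higher against a floor of 3 counts in the parental library, with 7.31 as the lower limit of the counting interval. IGROV-1/CDDP had 145 counts (5.74 CPM), 5.44-fold above IGROV-1 (3.63 to 8.4). The HepG2S, PancB1 and U lines had 0 to 5 counts a library.

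PDGFRB (ENSG00000113721, GRCh37 chromosome 5, 149493402 to 149535435, minus strand), which pericytes and fibroblasts use to answer PDGF, was at 1 and 3 counts in HCC4006P1 and at 682 and 722 counts (34.5 and 37.1 CPM) in HCC4006ER. The lines did not overlap, and HCC4006ER had the highest level of the 17. PDGFRB rose by 8.38 (SE 0.33, edgeR adjusted p = 1.2e-05), a ratio of 379 by counts (148 to 1393). The counting interval is wider than that SE, since the parental libraries had 1 and 3 counts. In HCC4006ER LUM stood at 115 CPM and DCN at 12.7 CPM. The pericyte marker RGS5 was at 0.578 CPM in HCC4006P1 and 0.765 CPM in HCC4006ER. IGROV-1 had 11 counts (0.4 CPM) and IGROV-1/CDDP 138 (5.46 CPM), 13.6-fold higher (7.39 to 28), with DCN at 0 CPM in both, LUM at 0 and 0.0396 CPM, and RGS5 at 1.6 and 3.16 CPM. HCC4006GR had 24 counts (1.59 CPM) against 1 in HCC4006P2, a ratio of 21.6 (3.53 to 889). In HCC827P, HCC827GR, the PancVB family and the UWB1.289 family PDGFRB had 2 to 4 counts a library. HepG2 was divided: its libraries had 511 and 78 counts (13.9 and 2.24 CPM), and the HepG2S3 libraries, at 7.69 and 6.07 CPM, lay between them. The fitted change of -0.56 (SE 0.79) did not pass (edgeR adjusted p = 0.568), and it was 1.31 without HepG2 replicate 1 and -1.35 without replicate 2, both past the threshold. HepG2S1 had 2.03 CPM, near the lower HepG2 library, and its change of -1.59 on log2(CPM + 1) was -0.10 without HepG2 replicate 1. No direction of PDGFRB in the HepG2 pairs can thus be given.

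PDGFC (ENSG00000145431, GRCh37 chromosome 4, 157681606 to 157892951, minus strand), a ligand that acts mainly through PDGFRA, was present in every line. It was highest in IGROV-1/CDDP (353 CPM), IGROV-1 (189 CPM) and PancVB (104 CPM), and IGROV-1/CDDP was 1.87-fold above its parent (1.8 to 1.93). PDGFC was 3.31-fold higher in HCC827GR (86.2 CPM) than in HCC827P (26.1 CPM) and 2.39-fold higher in U10 (54.8 CPM) than in UWB1.289 (23 CPM), with 32.6 CPM in U100. It was at 71.8 CPM in PancB1Q and 40.5 CPM in PancB1V, and at 28.2 and 40 CPM in HCC4006P2 and HCC4006GR. The replicated pairs both went down. HCC4006P1 had 37.5 and 33.5 CPM and HCC4006ER 22.1 and 21.1 CPM, so it fell by 0.82 (SE 0.13, edgeR adjusted p = 0.00298). HepG2 had 15.2 and 19.4 CPM and HepG2S3 4.65 and 4.31 CPM, so it fell by 2.26 (SE 0.21, edgeR adjusted p = 5.9e-04), with 8.63 CPM in HepG2S1. IGROV-1/CDDP had the most PDGFC of the 17 lines. Its PDGFRA level, 5.74 CPM, was also the highest, but its counting interval (4.87 to 6.75) overlapped that of HCC4006GR (4.14 to 6.44).

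IGF1R (ENSG00000140443, GRCh37 chromosome 15, 99191768 to 99507759, plus strand), the receptor for IGF1 and IGF2, was at 9.24 CPM or more everywhere. Its highest level was in IGROV-1, 601 CPM (16520 counts), and IGROV-1/CDDP had 65.9 CPM (1666 counts), 9.12-fold lower, the lowest change of this gene in the 10 pairs (-3.17 on log2(CPM + 1)). HepG2 had 116 and 153 CPM, HepG2S1 51.8 CPM and HepG2S3 30.3 and 31.2 CPM, so it fell by 2.44 in HepG2S3 (SE 0.18, edgeR adjusted p = 2.7e-04). HCC4006ER, at 246 and 223 CPM, was above HCC4006P1, at 92 and 65.2 CPM, and the gene rose by 1.48 (SE 0.17, edgeR adjusted p = 6.5e-04). HCC4006GR, at 171 CPM, was 1.68-fold above HCC4006P2 at 101 CPM. The remaining pairs were within 2-fold: 80.7 CPM in HCC827P and 93.2 in HCC827GR, 82 in UWB1.289, 112 in U10 and 79 in U100, and 14.2, 9.24 and 11.8 CPM in PancVB, PancB1Q and PancB1V.

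KDR (ENSG00000128052, GRCh37 chromosome 4, 55944648 to 55991762, minus strand) was at 23.7 CPM (323 counts) in HCC4006P2 and 5.23 CPM (79 counts) in HCC4006GR, 4.54-fold lower. U100 had 18.8 CPM (247 counts) against 4.47 CPM (52 counts) in UWB1.289, 4.21-fold higher (3.11 to 5.79), while U10 had 6.24 CPM, within counting error of the parent. The olaparib sublines thus differed in KDR as they did in FGFR4. PancVB, PancB1Q and PancB1V had 2.44, 1.19 and 2.78 CPM. HCC4006P1 had 7 counts in each library and HCC4006ER 13 and 15, a change of 1.00 that did not pass (SE 0.42, edgeR adjusted p = 0.0902). KDR had 0 counts in both HepG2 libraries, HepG2S1, HCC827P, IGROV-1 and IGROV-1/CDDP, which allows up to 0.0819, 0.0861, 0.305, 0.173, 0.109 and 0.119 CPM, 0 and 1 counts in the HepG2S3 libraries, and 1 count in HCC827GR. Of the sorafenib-targeted receptors among the 10 genes, KDR and PDGFRA were thus near or at 0 in HepG2 and its sublines. The endothelial marker CDH5 was at 9.03, 81.4 and 43.9 CPM in UWB1.289, U10 and U100 and at 0.0735 and 1.52 CPM in HCC4006P2 and HCC4006GR, VWF was at 1.38, 1.37 and 4.12 CPM in the first family and 0.661 and 0.397 CPM in the second, and TEK was at most 0.735 CPM in any line. CDH5 was also at 43, 45.9 and 68.5 CPM in PancVB, PancB1Q and PancB1V, where KDR was low. In IGROV-1 and IGROV-1/CDDP, without KDR counts, CDH5 was at 5.89 and 0.791 CPM and VWF at 2.87 and 9.45 CPM. The part of these marker levels in the KDR values was not tested.

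The replicated pairs allowed a test of each gene. In HepG2S3 7 of the 8 genes that passed the filter on low counts were called, 1 up (FGF2) and 6 down, where 63.5% of all genes were called; PDGFRA and KDR did not pass the filter. In HCC4006ER 8 of 10 were called, 4 up (PDGFRB, PDGFRA, FGFR1 from its own fit and IGF1R) and 4 down (FGFR2, FGFR4, FGF2 and PDGFC), where 49% of the genes before the missing stretch were called. The difference between both changes was tested directly for the 9 genes outside the stretch, and 8 were called, where 55.9% of 14479 genes were. IGF1R fell in one family and rose in the other, a difference of -3.90 (SE 0.27, edgeR adjusted p = 5.0e-06), and FGF2 did the reverse, 8.68 (SE 0.36, edgeR adjusted p = 3.0e-07). KDR was the gene for which no difference was called (1.07, SE 1.07, edgeR adjusted p = 0.475). It had 0 counts in both HepG2 libraries and 0 and 1 in those of HepG2S3. The fit thus had next to nothing to compare on that side.

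**Figure D4:**
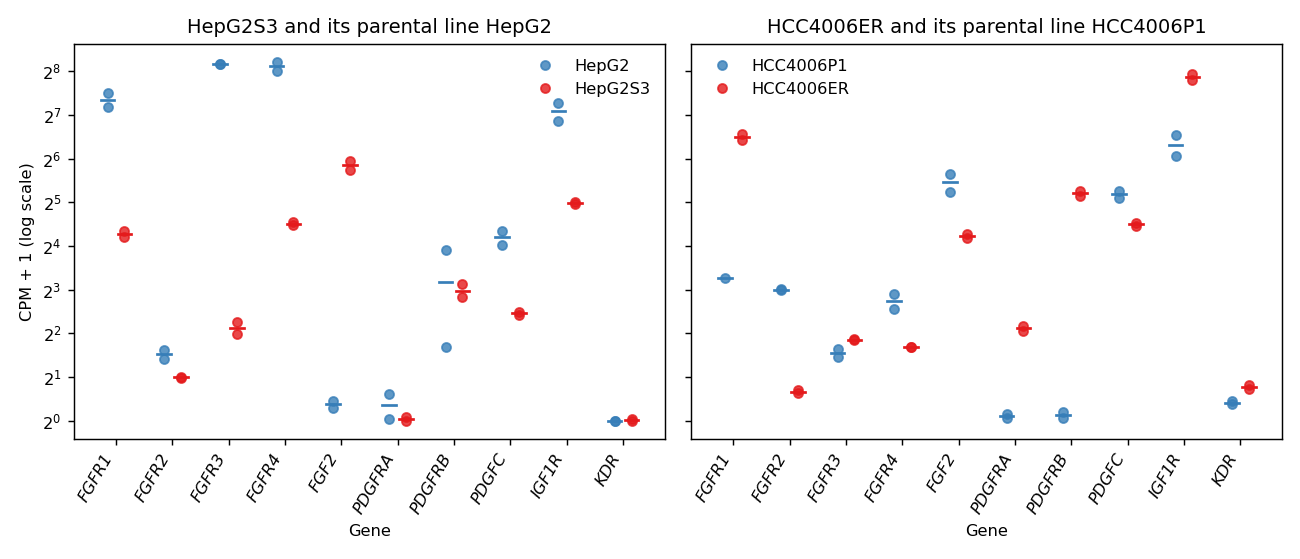
CPM + 1 (log scale) of the 10 genes in each library of HepG2 and HepG2S3 (left) and of HCC4006P1 and HCC4006ER (right), with parental libraries in blue, resistant ones in red and bars at the means. FGF2 lies at 52.4 and 61 CPM in HepG2S3 against 0.355 and 0.23 CPM in HepG2, the HepG2 libraries disagree on PDGFRB, and FGFR1 has 1 point in HCC4006P1.

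A change shared by resistance as such was tested over the 7 parental lines. The counts of each parent's resistant lines were summed, and the parental line was a block. HCC4006P1 and HCC4006P2 are stocks of 1 established line, so the 7 blocks are not all independent. With both as 1 block, 0 members and 0 of 16348 genes were called by edgeR. Of 8 genes tested, 0 were called, where 0% of 15847 genes were called at an edgeR adjusted p under 0.05 and 722 had an unadjusted p under 0.05. DESeq2 called 99 genes in the same design, with 0 of the 8 among them. The fitted changes ran from -0.60 (SE 0.57) for FGFR2 to 0.90 (SE 1.05) for FGFR1, and the standard errors reflect how far the families parted. PDGFRA and PDGFRB did not pass the filter on low counts in this fit.

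The 62 other genes of these pathways were counted by list. Of the 40 that could be tested in HepG2S3, 12 rose and 22 fell, and of 41 in HCC4006ER 16 rose and 13 fell. These shares stand beside 63.5% and 49% of all genes called in the same tests, and the lists too were chosen with earlier results known. IGF2, a ligand of IGF1R and a fetal liver product, had 1180 and 1875 CPM in HepG2 and 2.34 and 2.09 CPM in HepG2S3, and fell by 9.74 (SE 0.36, edgeR adjusted p = 4.7e-05). IGFBP1, an IGF binding protein made by hepatocytes, had 874 and 495 CPM in HepG2 and 0.562 and 1.27 CPM in HepG2S3, and fell by 9.86 (SE 0.56, edgeR adjusted p = 1.3e-04). IRS2, an adaptor of the insulin and IGF1 receptors, had 0.218 and 0.201 CPM in HepG2 and 169 and 183 CPM in HepG2S3, and rose by 9.37 (SE 0.20, edgeR adjusted p = 2.6e-05). KLB, the co-receptor that lets FGFR4 bind FGF19, had 131 and 64.1 CPM in HepG2 and 0.406 and 0.424 CPM in HepG2S3, and fell by 8.18 (SE 0.51, edgeR adjusted p = 1.6e-04). FGFR4 and its co-receptor thus both fell. HepG2S1 had 0.406 CPM of IGF2, 0.508 CPM of IGFBP1 and 150 CPM of IRS2, and IGFBP7 was at 10 CPM there against 0.113 CPM in HepG2. Among VEGF and FGF ligands, VEGFC had 0 counts in HepG2 and 5.25 and 4.83 CPM in HepG2S3, at least 120-fold higher against a floor of 3 counts over the HepG2 libraries. FGF17 went from 2.48 and 1.41 CPM to 0, at least 40.9-fold lower, FGF12 from 1 count to 96, and FGFBP1, a carrier that releases FGFs from the matrix, from 0 to 109 counts, at least 41.5-fold higher. By list, the median changes in HepG2S3 were 0.61 for FGF ligands (3 of 6 tested rose, 2 fell), -0.43 for FGF receptor partners (1 of 6 rose, 3 fell), -1.35 for PDGF and VEGF ligands (3 of 8 rose, 5 fell) and -0.17 for PDGF and VEGF receptors and co-receptors (1 of 3 rose, 1 fell). They were -2.07 for IGF ligands and receptors (0 of 3 rose, 3 fell), -1.39 for IGF binding proteins (3 of 6 rose, 3 fell) and -0.75 for receptor adaptors (1 of 8 rose, 5 fell), against -0.01 over all genes tested.

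In HCC4006ER FGFBP1 went the other way, from 56.7 and 62.6 CPM to 0.304 and 0.257 CPM (it fell by 7.80, SE 0.23, edgeR adjusted p = 8.4e-06). FLT4, the VEGFC receptor of lymphatic endothelium, rose from 0.219 and 0.256 CPM to 14.3 and 14.8 CPM (5.81, SE 0.27, edgeR adjusted p = 2.1e-05). IGFBP5 rose from 0.0875 and 0.205 CPM to 6.98 and 6.88 CPM, FGF9 from 0 to 54 counts, at least 19.4-fold, and KL from 1 count to 23. PDGFB, a PDGFRB ligand, fell from 82.4 and 78.4 CPM to 20.6 and 21 CPM (it fell by 2.05 on the log2 scale, edgeR adjusted p = 5.1e-05). PDGFB thus fell where PDGFRB rose, but the PDGF ligands on the list did not move as one. PDGFA changed by -1.34 (SE 0.28, edgeR adjusted p = 0.00819) and PDGFD by 2.26 (SE 0.35, edgeR adjusted p = 0.00256). FGF19 had 6.34 and 0.974 CPM in HCC4006P1 and 0.152 and 0.103 CPM in HCC4006ER, and PGF 1.14 and 0.769 CPM against 0.304 and 0.257 CPM, and both fell (edgeR adjusted p = 0.0116 and 0.0127). By list, the medians in HCC4006ER were -0.57 for FGF ligands (2 of 6 tested rose, 3 fell), 0.17 for FGF receptor partners (2 of 7 rose, 1 fell), -0.36 for PDGF and VEGF ligands (2 of 7 rose, 3 fell) and 0.93 for PDGF and VEGF receptors and co-receptors (4 of 5 rose, 0 fell). They were 0.09 for IGF ligands and receptors (1 of 3 rose, 0 fell), 1.27 for IGF binding proteins (4 of 5 rose, 1 fell) and -0.56 for receptor adaptors (1 of 8 rose, 5 fell), against 0.01 over all genes tested.

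In the pairs without replicates, IGF2 was higher in PancB1Q (23.6 CPM), PancB1V (80.7 CPM) and IGROV-1/CDDP (24.5 CPM) than in their parents (0.368 and 0.327 CPM), the opposite of the HepG2 pairs. FLT1, a VEGFA receptor, was at 0 counts in PancVB and 14 CPM in PancB1Q, at least 101-fold higher, and FGF1 at 1.89 CPM in PancVB and 51.7 CPM in PancB1V. IGFBP5 was at 53.3 CPM in U10 and 47.6 CPM in U100 against 0.516 CPM in UWB1.289, and at 5.97 CPM in IGROV-1/CDDP against 0 counts in IGROV-1. FGFBP1 was lower in PancB1Q (4.76 CPM) and PancB1V (2.78 CPM) than in PancVB (41.3 CPM), in HCC4006GR (8.74 CPM) than in HCC4006P2 (46.7 CPM), and in HCC827GR (1.16 CPM) than in HCC827P (13.6 CPM). In HCC4006GR, FGF5 was at 62.4 CPM against 3.6 and CSF1R at 43.6 CPM against 3.23, while FGF19, the ligand of FGFR4, was at 4.63 CPM against 134. In HCC827GR, IGFBP1 was at 153 CPM against 6.29, IGFBP7 at 19.1 CPM against 0.0577, and IGFBP3 at 98.9 CPM against 884. IGFBP2 in PancB1Q (0.525 against 10.2 CPM) and IGFBP3 in PancB1V (12.7 against 91.6 CPM) were lower too. The olaparib lines also had IGFBP7 at 55.5 CPM (U10) against 6.28, FGF13 at 1.46 CPM (U10) against 12.7, PGF at 9.07 CPM (U10) against 40.7, and PDGFD at 12.4 CPM (U100) against 1.72. NRP2, a VEGFC co-receptor, was at 2.41 CPM in IGROV-1/CDDP against 55 in IGROV-1, and FGF12 at 0.0791 CPM against 15.5. Past 2-fold among list genes were 6 higher and 13 lower of 34 in HepG2S1, where 44.3% of all genes were past 2-fold, 9 and 8 of 38 in PancB1Q (15.5%) and 6 and 8 of 38 in PancB1V (16.3%). In the lung lines it was 11 and 7 of 40 in HCC4006GR (15.6%) and 11 and 10 of 37 in HCC827GR (18.5%). In the ovarian lines it was 8 and 4 of 39 in U10 (11.6%), 10 and 2 of 39 in U100 (8.4%) and 5 and 11 of 36 in IGROV-1/CDDP (13%).

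Genes with the most similar pattern were sought by Pearson's r of log2(CPM + 1) over the 17 lines, which share parents and are few, so that these values only describe. Among the genes most like FGFR3 was FASTKD5 (r = 0.906), and FGFR4 was most like DUSP16 (0.865). FGFR2 was most like KIF1A (0.914) and GP1BA (0.907), and KDR like NR3C2 (0.907) and LRATD1 (0.905). FGFR1 was most like DENND5A (0.803) and UNC13B (0.798), PDGFRB like NRBP1 (0.809) and NEK9 (0.796), and FGF2 like PCNX2 (0.849) and ALS2CL (0.843). PDGFC was most like ZNF620 (0.866) and NKIRAS1 (0.862), and IGF1R like CLASP1 (0.858) and B4GALNT4 (0.839). PDGFRA was in too few lines to be compared.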

How the data were processed

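For each of 21 libraries the authors deposited counts of reads per Ensembl gene, made with HTSeq after alignment to hg19, and the processing notes name Bowtie, TopHat and SAMtools. The paper describes a stranded mRNA kit and a 3′ end kit, and which library had which, and the strand setting of the counting, are not given in the sources used here. Lines with summary totals, 28% to 42.8% of all that HTSeq tallied in a library, were left out. The deposited counts were otherwise used as they are. Of 53515 genes, 45100 (84.3%) matched the GENCODE annotation on GRCh37, which gave symbols, positions and canonical transcript lengths. Counts were divided by the total on genes to give CPM, and lines with 2 libraries were averaged. For HCC4006P1 replicate 1, which lacks counts for 8694 genes from chromosome 7 on, those genes were left missing and the total was raised by 22.1%, since replicate 2 has 18.1% of its counts there.

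Changes per pair were taken on log2(CPM + 1) with a minimum of 1 CPM in either line. Intervals are 95% Wilson or exact intervals and hold counting error alone, as reads copied by PCR do not count separate molecules. The quasi-likelihood test of edgeR 4.0.16 (R 4.3.3) used TMM, filterByExpr and Benjamini-Hochberg adjustment over all genes with a threshold of 0.05. DESeq2 1.42.0 was an alternative. The SE beside an edgeR change is the absolute log2 change over the square root of the test's F statistic, not a fitted standard error. Where a line had few counts, as PDGFRB and PDGFRA in HCC4006P1 or FGF2 and IRS2 in HepG2, it can understate counting error. Nothing says that libraries of a line came from separate cultures, so p-values may measure technical spread only. The letters A and B of the labels served as replicate numbers. The titles give both HepG2 libraries the same number, and likewise both HepG2S3 libraries. The scripts were tested on simulated data, and Python 3.11.15 with pandas 2.3.3, scipy 1.17.1 and matplotlib 3.10.9 was used.

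The members and lists were chosen with earlier results of these data known. Named from the lists were at most 4 genes per direction and edgeR test with the largest change, and at most 2 per direction and unreplicated pair with at least 5 CPM and a log2 change of at least 2. PDGFA and PDGFD in HCC4006ER were named beside PDGFB outside this rule. Likeness used genes with at least 1 CPM in 6 or more lines, 11827 of them outside the missing stretch and 13963 for FGFR1. The endothelial marker PECAM1 could not be matched and was not used here. A gene that the likeness rule names and a promoter motif are not reported here.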

Additional observations from a re-analysis of the deposited data

Results flagged for a closer look

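Of the 9 genes tested for a difference between the change in HepG2S3 and that in HCC4006ER, 8 differed by the test of the difference itself (edgeR's quasi-likelihood test, 2 libraries in each of 4 lines, where 55.9% of all genes differed). Given as the change in HepG2S3 minus that in HCC4006ER on the log2 scale, FGF2 differed by 8.68, FGFR2 by 2.46, FGFR3 by -7.03, FGFR4 by -2.50, IGF1R by -3.90, PDGFC by -1.42, PDGFRA by -8.54 and PDGFRB by -8.91. FGF2 and IGF1R were called in opposite directions in the pairs. FGFR2, FGFR4 and PDGFC were called as falls in both and differed in size, with the larger fall of FGFR2 in HCC4006ER and of FGFR4 and PDGFC in HepG2S3. FGFR3 was called in HepG2S3 and PDGFRB in HCC4006ER only, and the PDGFRA value rests on 1, 18, 2 and 0 counts in the HepG2 and HepG2S3 libraries, with an adjusted p of 0.0877 without HepG2 replicate 2. The pairs also differ in drug, tissue and medium, which cannot be told apart.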

How the results depend on the processing

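The counts of genes called in HepG2S3, in HCC4006ER and for the difference of changes stayed within 1.5 times their value under DESeq2, RLE size factors and no filter on low counts. Over 7 parental lines the count stayed at 0 under these and with each parental line left out. The main fit there called 0 of 15847 genes, so a steady 0 says little about the members. Of the counts past 2-fold, the number of lower combinations went from 21 to 11 without the HepG2S1 and HepG2S3 pairs, an alternative chosen after seeing the data that drops 2 of 10 pairs. PDGFRB in HepG2S3 went from -0.56 to 1.31 without HepG2 replicate 1 and to -1.35 without replicate 2, so these libraries decide its direction. Fits with a library left out hold 1 library in a group, so their counts of called genes are not listed. Among those of HCC4006ER, FGFR1 was fitted only where HCC4006P1 replicate 1 was the one left out, and the genes passing the filter also varied. With the missing stretch kept as zeros, 6 were called in HCC4006ER, where FGFR1 had an adjusted p of 0.38.

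Same-numbered libraries deviated together in HCC4006 (r = 0.448 over 10285 genes) and hardly in HepG2 (r = 0.0551 over 11967 genes), and with 2 pairs the numbers only name libraries. With the replicate number as a block 7 genes were called in HepG2S3, 7 in HCC4006ER (of the 9 outside the missing stretch) and 8 for the difference. Over all genes the block called 7787 in HCC4006ER against 6266 without it. Levels under 1 CPM, as for PDGFRA, PDGFRB and KDR in most parental lines, are limited by depth.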
